A study of Mus musculus with 16 samples.

Results

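The 10 genes described here encode the core proteins of the microRNA (miRNA) machinery. They were chosen by gene symbol, 10 of the 46078 genes in the count table: the 4 Argonautes (Ago1, Ago2, Ago3, Ago4), the 3 GW182 proteins (Tnrc6a, Tnrc6b, Tnrc6c) and the processing proteins Dicer1, Drosha and Dgcr8. A second entry named Dgcr8, on a patch scaffold of the assembly, held no counts in any library and was not used. All 10 genes passed the filter on low counts that left 14897 genes for testing.

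MicroRNAs are short RNAs that guide Argonaute proteins to messages with matching sequence. In the nucleus Drosha and its RNA-binding partner Dgcr8 (together the Microprocessor) cut a hairpin out of the primary transcript, and in the cytoplasm Dicer1 cuts the hairpin to a duplex. One strand stays in an Argonaute, of which Ago2 is known as the one that slices well-matched targets. Argonautes recruit GW182 proteins, which bring in deadenylases, so that the message is shortened and decayed. The messages of this machinery can themselves carry miRNA sites.

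The cells were cultured mouse juxtaglomerular (JG) cells, named after the kidney arteriole cells that make renin, here engineered so that the renin promoter drives YFP. They were transfected with miR-106b or with a non-mammalian microRNA precursor as control and collected 48 h later. Polyadenylated (polyA) RNA was taken from 4 control and 4 miR-106b cultures, and RNA bound to immunoprecipitated Ago2 (Ago2-IP) from 4 further cultures of each transfection, which gave 16 libraries. The libraries kept no strand information. The comparisons asked how miR-106b changed the messages of the machinery in polyA RNA, how it changed them among Ago2-bound RNA, and how the Ago2:polyA ratio of each message moved.

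Libraries held 2579086 to 9459585 counts, and the polyA control libraries were the deepest, at 5692958 or more. Of 11 juxtaglomerular and mural genes 10 were detected in every group except Ago2-IP miR-106b, which had 9, but the renin gene Ren1, which defines JG cells, was at 0 in all 16 libraries, so that this marker does not bear out the label. A list of 25 cardiac muscle genes took 2.48% to 3.53% of all counts in polyA control, 4.84% to 8.37% in polyA miR-106b and 10.9% to 11.9% in both Ago2-IP groups, with 25 of 25 genes detected in polyA RNA and only Sln at 0 in Ago2-IP RNA. Lists of 10 endothelial and 10 leukocyte and blood genes, none at 0, followed the same order, with summed levels of 337 to 495 and 145 to 219 CPM (counts scaled to library size) in polyA control, 640 to 1158 and 316 to 515 in polyA miR-106b, and 1447 to 1603 and 670 to 750 in Ago2-IP RNA. The 11 juxtaglomerular and mural genes likewise went from 2581 to 2876 CPM in polyA control through 3667 to 4618 in polyA miR-106b to between 5154 and 5708 in Ago2-IP RNA, although of the 9 tested 1 was lower after miR-106b in polyA RNA and 2 were lower in Ago2-IP than in polyA RNA of control cells. The 10 kidney epithelium genes went the other way, from 146 to 327 CPM in polyA RNA to at most 28.7 in Ago2-IP RNA. What these differences contribute to the values of the miRNA machinery was not tested, and whether Ago2-IP and polyA RNA came from the same mix of cells, on which the Ago2:polyA ratios rest, was not tested either. In bulk RNA, fewer cells of a type and less RNA per cell cannot be told apart.

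The miRNA that was transfected and its family are shown because they share 1 seed, the bases 2 to 8 that pair with a target, printed in capitals. Mouse miR-6383 has the same bases 2 to 8 and is not printed. Sequences are from RefSeq (GRCm38.p6). The mature miR-106b-5p lies at chr5:138165787-138165807 on the minus strand.
miR-106b-5p: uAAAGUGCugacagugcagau
miR-106a-5p: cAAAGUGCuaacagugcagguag
miR-17-5p: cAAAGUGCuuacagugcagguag
miR-20a-5p: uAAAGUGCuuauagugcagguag
miR-20b-5p: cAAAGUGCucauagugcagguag
miR-93-5p: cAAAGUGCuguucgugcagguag

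The longest annotated 3′UTR of each gene (GENCODE M21, GRCm38) was searched on the sense strand for GCACTTT, the complement of the seed, and for CACTTTA, the complement of bases 2 to 7 followed by an A. GCACTTT occurred in 6 of the 10 genes, once each in Ago1, Ago2, Tnrc6a, Tnrc6b and Tnrc6c and 3 times in Ago3, against 1954 of 13222 tested genes with an annotated 3′UTR (14.8%). CACTTTA occurred once each in Ago1, Ago2, Tnrc6b and Ago4, in Ago4 without GCACTTT, and Dicer1, Drosha and Dgcr8 had neither. With both motifs the share was 7 of 10 genes against 22.2%. The machinery has long 3′UTRs: in 8 of the 10 genes the 3′UTR was at least 2000 bases. Of these 8, 6 held GCACTTT, against 29.7% of the 4087 tested genes with such a 3′UTR. This limit does not match the lengths fully, since the 3′UTRs of Ago2, Tnrc6b and Ago3 had 11064, 11609 and 12742 bases. A match is a description of letters and not a site shown to be bound. Every GCACTTT match and the CACTTTA match of Ago4, which has no other, are printed with 11 bases on either side, 5′ to 3′ along the message, with the motif in capitals and the coordinates of the printed stretch in GRCm38.
Ago1, chr4:126438519-126438547, minus strand: cattgacatttGCACTTTcagacgtgaca
Ago2, chr15:73096824-73096852, minus strand: tcagagctgttGCACTTTctctgtaatca
Ago3, chr4:126343689-126343717, minus strand: cagggaactttGCACTTTgtaagtcatga
Ago3, chr4:126338988-126339016, minus strand: gtgcaacttttGCACTTTgcccagatgtt
Ago3, chr4:126334708-126334736, minus strand: tagttgcagctGCACTTTgagttactggg
Tnrc6a, chr7:123193608-123193636, plus strand: ggacgggccctGCACTTTgaacaggcttt
Tnrc6b, chr15:80940536-80940564, plus strand: acagaaactagGCACTTTggtggttcact
Tnrc6c, chr11:117761130-117761158, plus strand: tatcatgaaggGCACTTTtcagattgtgg
Ago4, chr4:126492154-126492182, minus strand: cagtgtcctgtCACTTTAaaaaaaaaaaa

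In polyA RNA, 3 Argonaute messages were lower and 1 was higher after miR-106b, none of the 3 GW182 messages was called, and 2 of the 3 processing messages were lower. By edgeR's quasi-likelihood test with Benjamini-Hochberg adjustment over all tested genes, 5 of the 10 genes were lower (Ago1, Ago2, Ago3, Dicer1, Dgcr8), where 21.5% of all tested genes were lower. Ago4 was the 1 gene called higher, where 19.0% of all tested genes were. The median log2 fold change of the 10 genes was -0.36, and that of all tested genes was -0.05. Every miR-106b library lay on 1 side of every control library for 7 of the 10 genes, 6 of them lower and 1 higher, against 38.3% of all tested genes. This tally depends on the scaling: with TMM over all 16 libraries Ago1, Ago2 and Ago3 were separated as lower and Ago4, Tnrc6b and Tnrc6c as higher, against 36.6% of all tested genes, while Dicer1, Dgcr8 and Drosha overlapped.

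**Figure D1:**
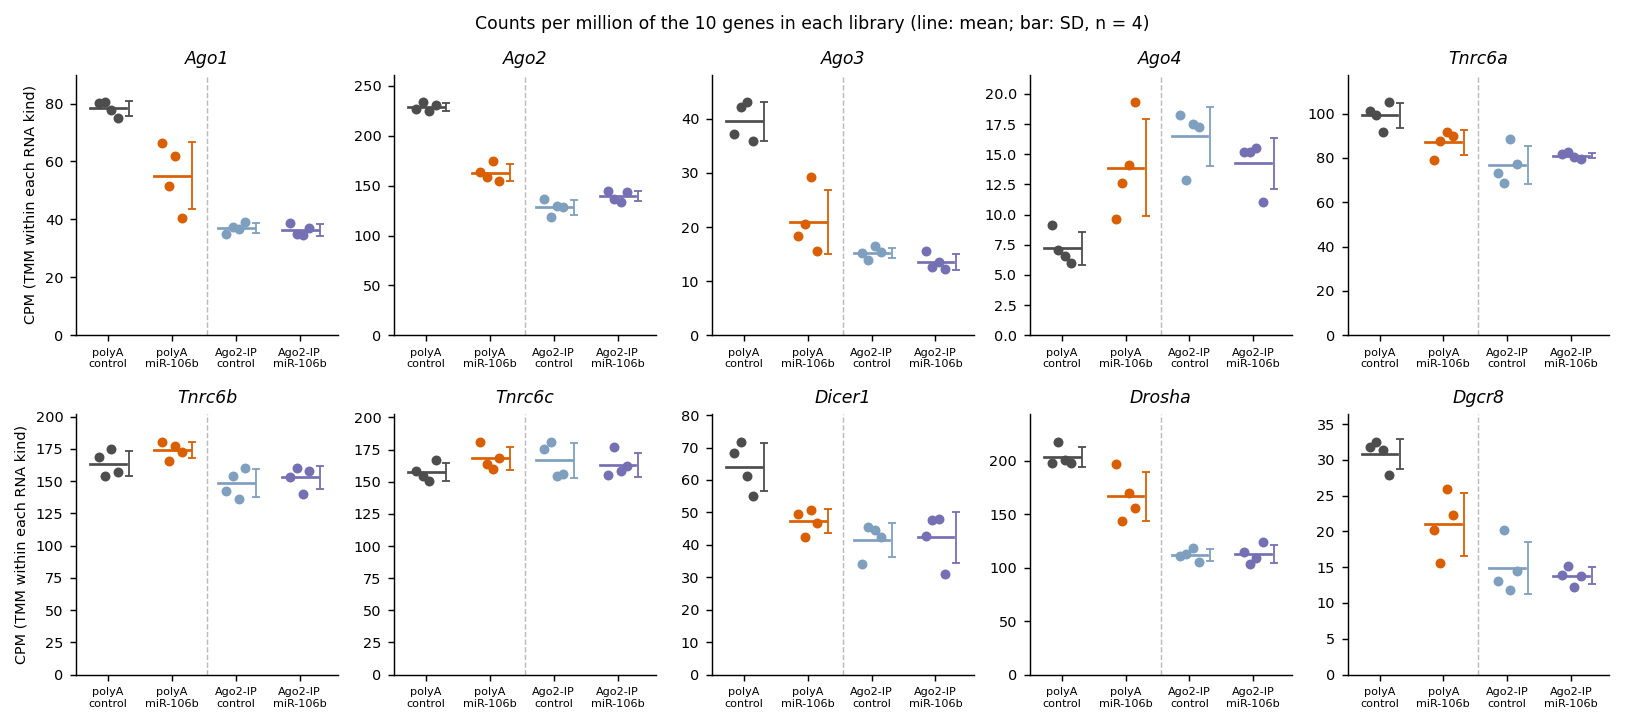
Each panel plots 1 gene, with CPM (TMM scaling within each RNA kind, so that levels are to be read within polyA or within Ago2-IP RNA) on the vertical axis and the 4 groups on the horizontal axis; points are libraries, lines means and bars SD (n = 4). In polyA RNA the miR-106b libraries of Ago1, Ago2, Ago3, Dicer1, Drosha and Dgcr8 all lie below the control libraries and those of Ago4 all above, and in Ago2-IP RNA both transfections overlap for all 10 genes.

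Ago2 had the smallest SE of the 6 called changes. Its CPM, scaled by the TMM method within polyA RNA, were 227.0, 233.4, 224.8 and 231.0 in control and 163.5, 159.0, 174.5 and 155.1 in miR-106b. The groups are wide apart for their spread, with means of 229.1 ± 3.9 and 163.0 ± 8.4 (SD, n = 4). The log2 fold change was -0.49 (SE 0.09, 95% interval -0.70 to -0.29, adjusted p = 0.00167). The exact two-sided permutation test of the library values gave p = 0.0286, the smallest that 70 relabellings of 4 against 4 can give.

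Ago3, with 3 GCACTTT matches, fell most of the 10 genes, and Dgcr8 and Dicer1, with none, were lower too. Whether the matches bear on these changes was not tested. Its control libraries were at 37.2, 42.3, 43.0 and 35.9 CPM and its miR-106b libraries at 18.4, 20.6, 29.3 and 15.6. The groups did not overlap, although replicate 3 of miR-106b was nearer to control than the others. The log2 fold change was -0.91 (SE 0.17, 95% interval -1.28 to -0.54, adjusted p = 0.00144, edgeR).

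Ago1 fell from 80.4, 80.4, 77.8 and 75.1 CPM in control to 66.5, 51.4, 61.8 and 40.4 in miR-106b. The miR-106b libraries were spread more widely (SD 11.6 against 2.5, n = 4) but none reached a control library. The log2 fold change was -0.50 (SE 0.14, adjusted p = 0.0124, edgeR). Within miR-106b, the libraries with the highest cardiac muscle shares (replicates 2 and 4, 8.37% and 8.11%) had the 2 lowest levels for 5 of the 10 genes (Ago1, Ago2, Tnrc6b, Dicer1 and Drosha) and not for the other 5, Ago3 and Dgcr8 among them. The same held for 19.1% of all tested genes.

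Ago4, in polyA control the least abundant Argonaute message, moved the opposite way. It had 9.18, 7.03, 6.60 and 5.95 CPM in control and 9.63, 12.6, 14.1 and 19.3 in miR-106b, from 34 to 67 counts a library. The highest control and the lowest miR-106b library, both replicate 1, were 9.18 and 9.63 CPM, so the groups separated narrowly. The log2 fold change was 0.92 (SE 0.23, 95% interval 0.42 to 1.42, adjusted p = 0.00707, edgeR). Ago4 lies on chromosome 4 (126489541 to 126533472, minus strand) next to Ago1 (126435012 to 126468583) and Ago3 (126331704 to 126429556), all on the same strand, so that 3 neighbouring genes included both the fall of Ago1 and Ago3 and the rise of Ago4.

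The GW182 messages, which encode the scaffold between Argonautes and the deadenylases, were not called. Tnrc6b had 168.3, 153.9, 175.2 and 156.9 CPM in control and 180.5, 165.9, 177.5 and 172.9 in miR-106b, overlapping ranges with a log2 fold change of 0.09 (95% interval -0.12 to 0.30, adjusted p = 0.48, edgeR). Tnrc6c lay at 150.3 to 166.9 CPM in control and 160.1 to 180.8 in miR-106b, with a log2 fold change of 0.10 (95% interval -0.11 to 0.30, adjusted p = 0.46). Tnrc6a lay at 91.5 to 105.0 CPM in control and 78.8 to 91.7 in miR-106b, with a log2 fold change of -0.19 (95% interval -0.41 to 0.03, adjusted p = 0.15). All 3 hold 1 GCACTTT match, as do Ago1 and Ago2, which fell. With all 16 libraries in 1 fit, which moved the median of all tested genes from -0.05 to 0.07 and the genes called higher from 2836 of 6034 to 3829 of 6237, Tnrc6b and Tnrc6c passed the test as higher (log2 fold changes 0.22 and 0.22, adjusted p = 0.0371 and 0.0360) and Dicer1 did not pass (-0.31, adjusted p = 0.0510).

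Of the processing messages, Dicer1 had 68.2, 71.8, 61.3 and 55.1 CPM in control and 49.5, 42.6, 50.8 and 46.7 in miR-106b, without overlap on this scale. Its log2 fold change was -0.44 (SE 0.12, adjusted p = 0.0111, edgeR). Dgcr8 had 31.8, 32.5, 31.3 and 27.8 CPM in control and 20.2, 15.5, 26.0 and 22.3 in miR-106b, again without overlap on this scale, and the log2 fold change was -0.56 (SE 0.16, adjusted p = 0.0116, edgeR). Of its exon bases 17.1% are shared with other genes, among them Trmt2a on the opposite strand, and reads there cannot be told apart in libraries without strand. Drosha, the catalytic subunit that works with Dgcr8, did not pass the threshold: it had 198.2, 217.7, 200.8 and 197.4 CPM in control and 197.1, 143.4, 169.5 and 156.2 in miR-106b. Replicate 1 of miR-106b was level with the control libraries and the other 3 were lower, with a log2 fold change of -0.29 (95% interval -0.54 to -0.04, adjusted p = 0.0608). Drosha passed as lower without that replicate 1 (-0.30, adjusted p = 0.0216), and with all libraries where genes needed at least 10 counts in every library (-0.29, adjusted p = 0.0366).

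The calls for Ago1, Dicer1 and Dgcr8 depended on which control library was left out. Without polyA control replicate 4 the same 6 genes were called. Without polyA control replicate 1, 2 or 3 in turn, 3 of the 10 genes were called (Ago2, Ago3, Ago4), while the calls among all tested genes went from 6034 to 4571, 4126 and 4286 and their median from -0.05 to 0.03. The log2 fold changes were then -0.42 to -0.41 for Ago1, -0.37 to -0.29 for Dicer1 and -0.47 to -0.45 for Dgcr8, with adjusted p between 0.0639 and 0.124. Without the miR-106b libraries 2 and 4, which had the highest cardiac muscle shares of their group, Ago2 (log2 fold change -0.40, adjusted p = 0.0201) and Ago3 (-0.71, adjusted p = 0.0307) stayed called, and Ago4 (0.75), Ago1 (-0.25), Dicer1 (-0.32) and Dgcr8 (-0.39) kept their direction with adjusted p between 0.0647 and 0.121. All tested genes then gave 3104 calls in place of 6034.

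**Figure D2:**
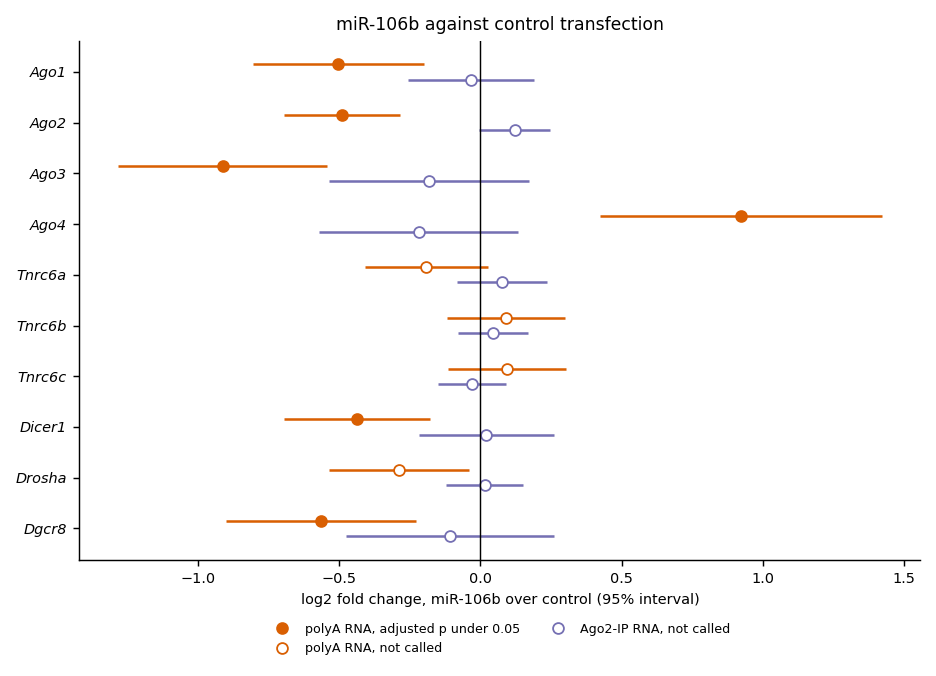
The horizontal axis gives the log2 fold change of miR-106b over control for each gene on the vertical axis, with points for polyA RNA (orange) and Ago2-IP RNA (purple), bars for the 95% interval, and filled points where the adjusted p of edgeR's quasi-likelihood test was under 0.05. In polyA RNA 5 genes are filled below 0 and Ago4 above it, and in Ago2-IP RNA no point is filled and each interval includes 0.

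Among Ago2-bound RNA, miR-106b changed none of the 10 messages past the threshold. The test called 0 of the 10 genes and 0% of all tested genes. No gene of the 10 reached an unadjusted p under 0.05, against 826 of the 14897 tested genes, and DESeq2 called none of the 10 and 2 genes in all. For no gene of the 10 did the transfections separate, against 3.24% of all tested genes. Ago2 came nearest, with 136.9, 118.7, 129.6 and 128.1 CPM in control and 144.5, 136.9, 133.5 and 143.8 in miR-106b. Its groups overlap, and its log2 fold change was 0.12 (95% interval -0.00 to 0.25, adjusted p = 0.89). The intervals of Ago1, Tnrc6a, Tnrc6b, Tnrc6c, Dicer1 and Drosha lay within -0.26 and 0.26 on the log2 scale, so that a change as large as that of Ago2 in polyA RNA lies outside them. Those of Ago3 (-0.54 to 0.17), Ago4 (-0.57 to 0.13) and Dgcr8 (-0.47 to 0.26), each with 79 counts or fewer in every Ago2-IP library, were wider.

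The Ago2:polyA ratio describes how strongly a message was represented in Ago2-bound relative to total polyA RNA. In control cells Ago1, Ago2, Ago3, Dicer1, Drosha and Dgcr8 were lower in Ago2-IP than in polyA RNA, 6 of the 10 genes, where 37.9% of all tested genes were lower. Ago4 and Tnrc6c were higher, 2 of the 10 genes, where 35.4% of all tested genes were higher. The median log2 ratio of the 10 genes was -0.46, and that of all tested genes was -0.06. Because most genes differed between the RNA kinds, these counts do not set the 10 genes apart.

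Ago4 had the highest ratio of the 10 genes in control cells, with a log2 ratio of 1.47 (95% interval 1.10 to 1.84, adjusted p = 9.50e-08, edgeR). Scaled over all 16 libraries, its mean was 6.35 CPM in polyA and 18.0 CPM in Ago2-IP RNA. Ago3 had the lowest, -1.10 (95% interval -1.36 to -0.85), with means of 35.0 and 16.6 CPM. Ago1 (-0.80), Dgcr8 (-0.78), Drosha (-0.59), Ago2 (-0.56) and Dicer1 (-0.35) were between, each with an adjusted p of 0.00508 or less. Tnrc6c had a log2 ratio of 0.36 (adjusted p = 5.64e-05), and Tnrc6a (-0.09) and Tnrc6b (0.14) were not called. With scaling to library size alone, which moved the median of all tested genes to -0.35 and left 4283 of 11396 called genes higher against 5274 of 10925, Tnrc6c was not called (0.07), Tnrc6a was called lower (-0.38) and Tnrc6b turned to -0.15 (adjusted p = 0.0446). Tnrc6b was called higher with DESeq2 size factors (0.16, adjusted p = 0.0420) and without Ago2-IP control replicate 3 (0.17, adjusted p = 0.0480), so its direction is not settled.

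In miR-106b cells fewer of the 10 genes differed between the RNA kinds. Ago1 (log2 ratio -0.45, SE 0.16, adjusted p = 0.0328) and Drosha (-0.40, SE 0.12, adjusted p = 0.0181) were lower, 2 of the 10 genes, where 19.8% of all tested genes were lower. No gene of the 10 was higher, where 18.6% of all tested genes were. The ratio of Ago4 was 0.21 (95% interval -0.26 to 0.69) and that of Ago2 was -0.06 (95% interval -0.29 to 0.16), neither of them called. Leaving out single libraries left 0 to 3 genes called in this comparison, where all tested genes gave 4560 to 5819 calls against 5728 with every library. Both calls were lost without Ago2-IP miR-106b replicate 2 or 3 (4755 and 4560 calls in all). Ago1 alone was lost without Ago2-IP miR-106b replicate 1 or 4 or polyA miR-106b replicate 1 or 3, with an adjusted p of 0.0572 to 0.0843. Ago3 (-0.60, adjusted p = 0.0331) passed without polyA miR-106b replicate 4 and Dgcr8 (-0.56, adjusted p = 0.0312) without replicate 2.

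**Figure D3:**
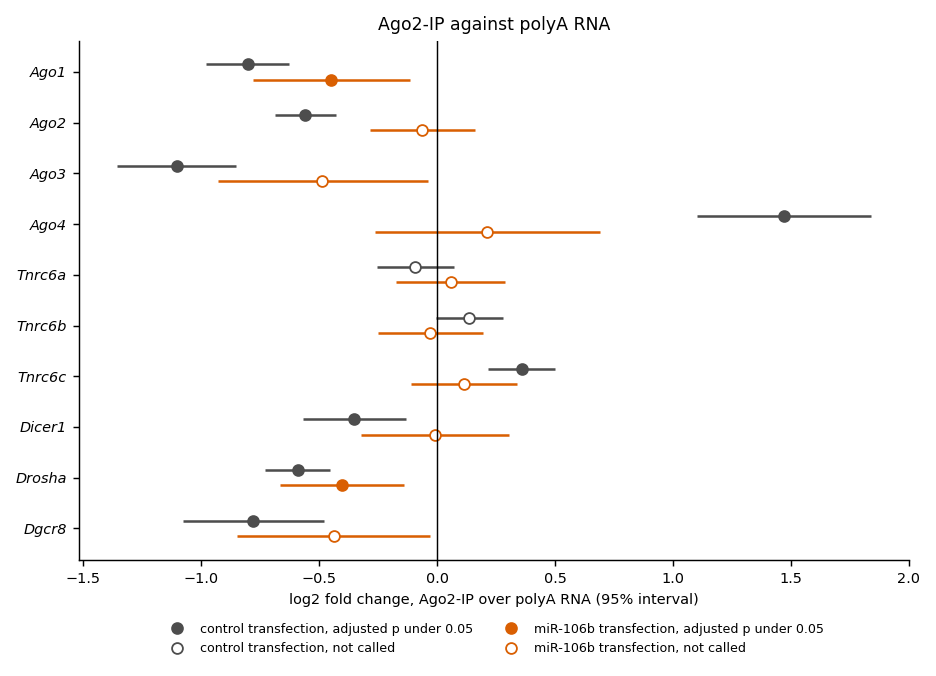
The horizontal axis gives the log2 fold change of Ago2-IP over polyA RNA for each gene on the vertical axis, in control (grey) and miR-106b (orange) cells, with bars for the 95% interval and filled points where the adjusted p of edgeR's quasi-likelihood test was under 0.05. In control cells 8 points are filled, with Ago4 at 1.47 and Ago3 at -1.10 as the extremes, and in miR-106b cells Ago1 and Drosha alone are filled.

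The difference between both ratios was tested as the interaction of transfection and RNA kind over all 16 libraries. It uses the same libraries as the comparisons above and is not independent of them. The ratio of Ago2 rose with miR-106b by 0.47 on the log2 scale (SE 0.11, 95% interval 0.24 to 0.69, adjusted p = 0.00253, edgeR), the 1 gene of the 10 called higher, where 7.61% of all tested genes were. The exact permutation test over 4900 relabellings within the RNA kinds gave p = 0.00163 for Ago2. Its null is no change with transfection in either RNA kind, which is not the same as equal changes in both. Unadjusted, it passed 32.9% of all tested genes. The ratio of Ago4 fell by 1.28 (SE 0.28, adjusted p = 0.00147, exact permutation p = 0.00286), the 1 gene called lower, where 19.7% of all tested genes were.

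For both genes the called change was in polyA RNA. Scaled over 16 libraries, the mean of Ago2 went from 202.3 to 157.0 CPM in polyA RNA with miR-106b, and was 140.1 and 150.3 CPM in Ago2-IP RNA of control and miR-106b cells. Ago4 went from 6.35 to 13.4 CPM in polyA RNA and was at 18.0 and 15.3 CPM in Ago2-IP RNA. In 8 of the 10 genes the polyA miR-106b mean lay between those of polyA control and Ago2-IP control, which was also the case for 73.6% of all tested genes. The exceptions were Tnrc6a and Tnrc6b. Of the remaining genes, Ago3 (0.58, adjusted p = 0.0644) was nearest to the threshold and passed it under 5 other settings of scaling, filter or block and without polyA miR-106b replicate 3 (0.78, adjusted p = 0.00551), as Ago1 did without replicate 1 (0.43, adjusted p = 0.0405). With TMM scaling within each RNA kind, which gave 1938 of 4302 called genes higher against 1134 of 4071, Ago1 (0.47, adjusted p = 0.0401) and Ago3 (0.73, adjusted p = 0.0207) were also called higher.

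**Figure D4:**
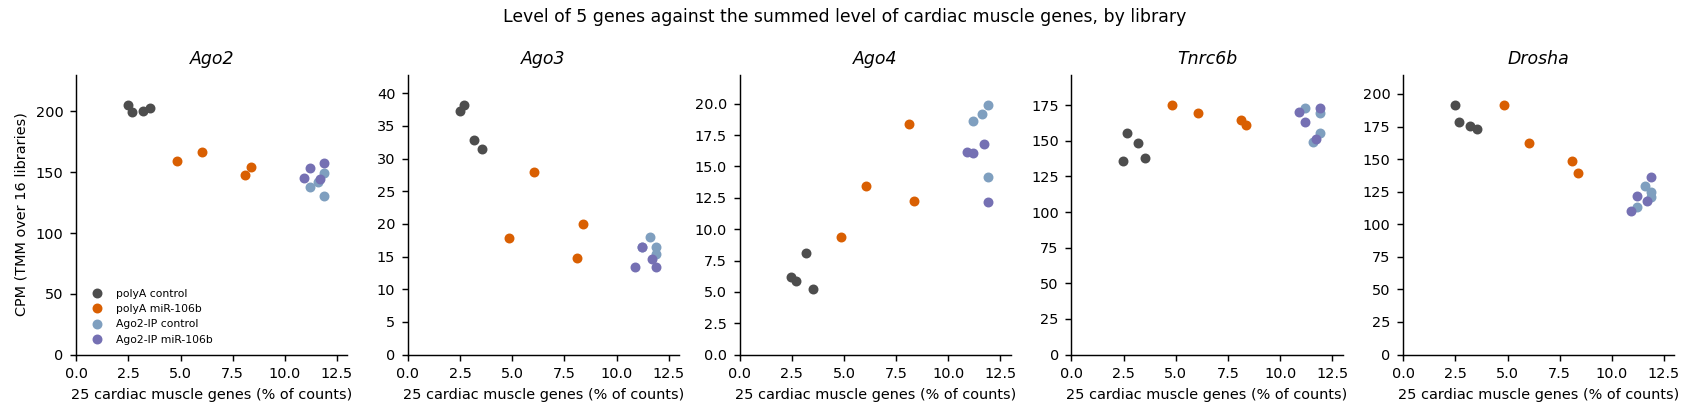
Each point is a library, with the share of its counts in 25 cardiac muscle genes (%) on the horizontal axis and the CPM of 1 gene (TMM over 16 libraries) on the vertical axis, coloured by group. The groups hold different shares, 2.48% to 3.53% in polyA control and 10.9% to 11.9% in Ago2-IP RNA, and polyA miR-106b lies between them at 4.84% to 8.37%; what the shares contribute to the levels was not tested.

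To compare levels between genes, CPM scaled over 16 libraries were divided by the length of the merged exons in kilobases. In polyA control Drosha was highest (30.3 ± 1.4 CPM per kb, SD, n = 4), followed by Ago2 (14.4 ± 0.2), Tnrc6c (10.8 ± 0.4), Ago1 (8.53 ± 0.29), Tnrc6a (6.90 ± 0.36) and Tnrc6b (6.10 ± 0.40). Dgcr8 (3.54 ± 0.25), Dicer1 (3.38 ± 0.39), Ago3 (2.11 ± 0.20) and Ago4 (0.914 ± 0.178) came last. Neighbours in this order had separate ranges except Tnrc6a with Tnrc6b and Dgcr8 with Dicer1. With the longest protein-coding transcript as the length, Tnrc6c ranked above Ago2 and Tnrc6a above Ago1. Merged exons include the annotated 3′UTRs, of up to 12742 bases in Ago3 and 11064 in Ago2 against 169 in Drosha. Which 3′UTRs these cells used was not tested, so this order and the family shares below rest on the annotated lengths.

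Of the summed level per kb of the 4 Argonautes in polyA control, Ago2 made up 55.5% ± 1.2, Ago1 32.8% ± 0.5, Ago3 8.12% ± 0.68 and Ago4 3.51% ± 0.65 (SD, n = 4). In polyA miR-106b the shares were 53.7% ± 1.9, 31.1% ± 4.7, 5.78% ± 1.21 and 9.38% ± 3.33, while the sum, scaled over 16 libraries, was 26.0 ± 0.5 and 20.9 ± 1.8 CPM per kb (29.4 ± 0.6 and 21.7 ± 1.8 with TMM within polyA RNA). Ago4 thus stood above Ago3 in mean share after miR-106b, with overlapping levels, where in control it stood below with separate ranges. In Ago2-IP control Ago4 made up 13.9% ± 1.5 and Ago3 5.40% ± 0.24. Among the GW182 messages Tnrc6c was highest in every group, from 45.4% ± 0.9 in polyA control to 51.3% ± 3.1 in Ago2-IP control. The sum of the 3, scaled over 16 libraries, was 23.8 ± 0.6 CPM per kb in polyA control and 26.3 ± 0.6 in polyA miR-106b, but 27.0 ± 0.8 and 27.3 ± 0.5 with TMM within polyA RNA, so the size of the difference depends on the scaling. The Argonautes share few stretches with other genes: of the 50-base windows of the Ago1 and Ago3 transcripts 1.53% and 0.73% occurred in another gene, and of those of Ago2 3.46%. Over the 10 genes the share was highest in Dgcr8, at 14.98%.

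**Figure D5:**
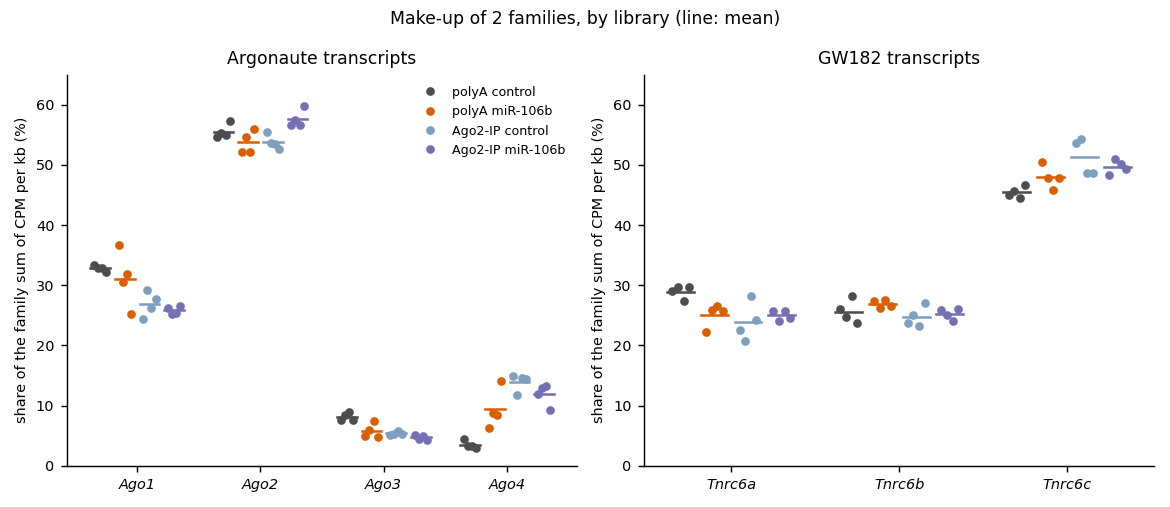
The vertical axis gives the share (%) of each gene in the summed CPM per kb of its family, for the 4 Argonautes (left) and the 3 GW182 genes (right); points are libraries coloured by group and lines are means of 4. Ago2 holds more than any other Argonaute in every library, and the Ago4 points lie at 2.98% to 4.46% in polyA control and at 6.21% to 14.1% in polyA miR-106b.

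Genes that work around the machinery were counted from 4 lists. Of 10 genes for nuclear processing and export of miRNA precursors, 8 were lower and none higher in polyA RNA after miR-106b, with a median log2 fold change of -0.63. Over all tested genes 21.5% were lower and 19.0% higher, with a median of -0.05, against which the counts of all 4 lists in polyA RNA are to be read. Among them were Ran, the GTPase of Exportin-5 export (-1.06, SE 0.16, adjusted p = 0.000683), and the RNA-binding protein Hnrnpa1 (-0.96, SE 0.17, adjusted p = 0.000963). Of 14 Dicer partners and RISC loading factors, 7 were lower and 1 higher, with a median of -0.31. Fmr1, an RNA-binding protein found with Argonautes, was lower by the largest amount (-1.42, SE 0.17, adjusted p = 0.000683), followed by the chaperone Hsp90aa1 (-0.998, SE 0.15, adjusted p = 0.000683). The co-chaperone Fkbp4 was higher (0.29, SE 0.11, adjusted p = 0.0479).

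Of 31 silencing effectors, the deadenylase, decapping and decay factors that act after GW182 proteins, 14 were lower and none higher, with a median of -0.31. The poly(A)-binding protein Pabpc1 (-0.88, SE 0.17, adjusted p = 0.00144) and the CCR4-NOT subunit Rqcd1 (-0.86, SE 0.12, adjusted p = 0.000683) fell most among those expressed at 5 CPM or more. Of 12 genes for miRNA tailing and turnover, 10 were tested, of which 3 were lower and none higher, with a median of -0.39, a share of lower genes near that of all tested genes (21.5%). The exonucleases Eri1 (-0.81, SE 0.25, adjusted p = 0.0212) and Xrn2 (-0.70, SE 0.12, adjusted p = 0.00105) were among the 3. Ran, Hnrnpa1, Hsp90aa1 and Pabpc1 have many near-identical pseudogenes in the mouse, so the counts of these 4 are uncertain.

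In Ago2-IP RNA none of the genes of these 4 lists was called after miR-106b, and 4 genes had an unadjusted p under 0.05. For the Ago2:polyA ratio, 5 of 10 nuclear processing genes, 5 of 14 Dicer partners and loading factors, 6 of 31 effectors and 1 of 10 turnover genes rose with miR-106b, and 2 Dicer partners and loading factors fell, where 7.61% of all tested genes rose and 19.7% fell. Ran (1.06, SE 0.19, adjusted p = 0.000149), Fmr1 (1.28, SE 0.31, adjusted p = 0.00306) and Rqcd1 (0.83, SE 0.20, adjusted p = 0.00283) were among the rises, and Fkbp4 (-0.50, SE 0.12, adjusted p = 0.00313) and Fxr2 (-0.47, SE 0.13, adjusted p = 0.00755), a relative of Fmr1, were the falls. In control cells 9 of 10, 8 of 14, 22 of 31 and 5 of 10 tested genes of the 4 lists were lower in Ago2-IP than in polyA RNA, and 0, 3, 3 and 0 were higher, where 37.9% of all tested genes were lower and 35.4% higher. Values ranged widely, with Pabpc1 at -2.39 and Ran at -1.94 against Fkbp4 at 0.92 and Cnot6l, a deadenylase subunit, at 0.55. In miR-106b cells 5, 6, 9 and 1 of them were lower and 0, 2, 0 and 0 higher, where 19.8% of all tested genes were lower and 18.6% higher, with Pabpc1 at -1.71, Ran at -0.86 and Fkbp4 at 0.45.

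Over the 16 libraries, the messages most like each gene in log2 CPM were found among 10004 genes with a mean of 5 CPM or more in both RNA kinds. For Ago1 it was Elk3 (Pearson's r 0.98), for Ago3 Ncapd2 (0.98), for Drosha Sept9 (0.98), for Ago2 Nras (0.97), for Ago4 Irx1 (0.95), for Tnrc6c Tmx2 (0.95) and for Dgcr8 Hhat (0.93). Dicer1 (Uba3, 0.88), Tnrc6b (Inafm1, 0.82) and Tnrc6a (Kmt2b, 0.68) had weaker best matches. These are descriptions over libraries that fall into groups of different depth and RNA kind: 1029 genes exceeded 0.9 with Ago1 and 981 with Drosha, each count including the gene itself.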

How the data were processed

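RNA of JG cells was measured in 16 libraries, 4 for each RNA kind and transfection, grouped by the submitters' titles; the 4 libraries of a group came from replicate cultures. Per the study's methods, single-end reads had ribosomal RNA reads removed, were aligned with Tophat2 to GRCm38 and counted on genes with HTSeq; the submitters' processing notes name TopHat2 version 2.0.10 and the methods another version. The deposited counts are raw whole numbers per gene and library, neither normalized nor filtered by the authors.

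Genes with at least 1 CPM in at least 3 libraries of any group were kept (14897 of 46078). Counts were scaled by TMM and tested in R 4.3.3 with edgeR 4.0.16 (limma 3.58.1), two-sided quasi-likelihood F test, dispersion estimated robustly, Benjamini-Hochberg over all tested genes, threshold 0.05. The polyA, Ago2-IP, control and miR-106b libraries were each fitted alone, and the change of the Ago2:polyA ratio in a fit of all 16. DESeq2 1.42.0 was an alternative. CPM within an RNA kind used TMM within it, and levels across kinds used TMM over 16 libraries. Marker sums are CPM scaled to library size only. Exact permutation tests compared mean log2 CPM (prior count 2) over 70 or 4900 relabellings. Sequence searches and figures used Python 3.11.15, numpy 2.4.6, pandas 2.3.3 and matplotlib 3.10.9. The scripts were tested on simulated data.

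The 10 genes, the 4 pathway lists and the 5 marker lists were chosen with earlier results of these data known. Named were all 10 genes and, per list and comparison, at most 2 genes higher and 2 lower with the largest change, out of those past the threshold whose mean reached 5 CPM; examples of these are printed. The alternatives were other scalings, filters, tests, a replicate block, all 16 libraries in 1 fit and leaving out each library. Replicate numbers did not pair the libraries (correlations of same-numbered libraries -0.383 to 0.22, 1 of 24 over 0.1). A count of 0 allows a level of 3 counts, from 0.317 CPM at the greatest depth to 1.16 CPM at the least, for counting error only.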

Additional observations from a re-analysis of the deposited data

Results flagged for a closer look

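The change of the Ago2:polyA ratio with miR-106b differed from 0 for 2 of the 10 genes. The difference between transfections was thus not the same in both RNA kinds for Ago2 (0.47 on the log2 scale) and Ago4 (-1.28). The interaction term of edgeR's quasi-likelihood test gave adjusted p = 0.00253 and 0.00147. Whether both RNA kinds came from the same mix of cells was not tested. Of all tested genes 7.61% rose and 19.7% fell in this test, so 2 of 10 is no more than the background. Of 40 groups of 4 libraries, 10 genes by 4 groups, 2 held a library far from the others by Dixon's ratio, where chance flags about 1 in 20 groups. Ago4 in Ago2-IP miR-106b had its lowest library at 11.1 CPM (ratio 0.919), with the other 3 at 15.2 to 15.5. Drosha in polyA control had its highest library at 217.7 CPM (ratio 0.833), with the other 3 at 197.4 to 200.8.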

How the results depend on the processing

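Of the 10 genes, 6 were called in polyA RNA, 3 to 7 when single libraries were left out, and 2 without polyA miR-106b libraries 2 and 4, an alternative chosen after the data were seen (calls in all: 6034, 4126 to 6704, and 3104). For the Ago2:polyA ratio in miR-106b cells, 2 were called, 4 with library size only or with all 16 libraries in 1 fit, 1 with the DESeq2 Wald test and 0 to 3 with single libraries left out (calls in all: 5728, 6082, 6912, 5378, and 4560 to 5819). For the change of the ratio, 2 were called, and 4 with library size only or TMM within each RNA kind (calls in all: 4071, 4306 and 4302); the exact permutation test passed 3 genes unadjusted (32.9% of all tested genes), and 5 with library size only (34.3%). The replicate block gave 6, 0, 8, 2 and 3 calls in the 5 comparisons (calls in all: 5511, 1, 10648, 5327 and 3896), the last with Ago3 (0.60, adjusted p = 0.0492). The causes were not tested. Of 450 log2 fold changes of single genes under other settings 424 kept direction and side of the threshold, and of 480 with 1 library left out 446 did.

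Directions turned only for values not called as reported. With library size only, Tnrc6a (-0.0913) and Tnrc6c (-0.0333) turned in the ratio of miR-106b cells and Tnrc6b in that of control cells (-0.15, adjusted p = 0.0446). Dicer1 turned in that ratio of miR-106b cells with DESeq2 size factors (0.0028) and the Wald test (0.0025), and Dicer1 (-0.0001) and Drosha (-0.0049) turned in Ago2-IP RNA with all 16 libraries in 1 fit. With single libraries left out, ranges crossed 0 in Ago2-IP RNA for Dgcr8 (-0.20 to 0.0628), Dicer1 (-0.061 to 0.151), Drosha (-0.0329 to 0.0543) and Tnrc6c (-0.0717 to 0.0082), and in the ratio of miR-106b cells for Dicer1 (-0.0763 to 0.110) and Tnrc6b (-0.0549 to 0.0085). Ago3, Ago4 and Dgcr8, with 79 counts or fewer in every Ago2-IP library, had the widest intervals there.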
